A study of Mus musculus with 2 samples.

Results

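The Hox genes lie in 4 clusters, and CtBP2 occupancy over these clusters was described in MIN6 cells, a clonal mouse insulinoma line that secretes insulin, is studied in place of primary beta cells and was kept in regular culture. The clusters were taken by position on mouse build mm9: HoxA at chr6:52100001-52220000, HoxB at chr11:96050001-96240000, HoxC at chr15:102740001-102880000 and HoxD at chr2:74480001-74610000. Each was cut into bins of 500 bp, which gave 240 bins in HoxA, 380 in HoxB, 280 in HoxC and 260 in HoxD, or 1160 of the 5284040 bins of the genome. From formaldehyde-fixed cells, 1 library was made by chromatin immunoprecipitation (ChIP) with an anti-CtBP2 antibody, and 1 input library came from sonicated chromatin that was not precipitated. No treatment, knockout or second cell type was compared, and a control IgG precipitation named in the labels' protocols was not analysed here. Each group had 1 library and so no replicates, and the tests below set the ChIP reads against the input reads without measuring spread between cultures.

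CtBP2 belongs to the transcriptional co-repressors. It does not read DNA sequence itself and is brought to chromatin by partner proteins such as the zinc finger repressors ZEB1 and ZEB2. Hox genes encode homeodomain transcription factors that give cells along the body axis their position, and the genes of a cluster stand in the order in which they are used from head to tail. In cells that do not use them, Hox clusters are a classic site of Polycomb repression, and they hold many CpG islands and few interspersed repeats. Expression and histone marks were not measured here, so nothing in these data says which Hox genes were active in these cells.

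The reference table from RefSeq, on build GRCm38.p6, names 39 Hox genes: 11 in HoxA, 10 in HoxB, 9 in HoxC and 9 in HoxD. It was used for names, order and sequence only, because its build differs from that of the reads, and no single gene was given a read count. In its order, HoxA has Hoxa13 at the high-coordinate end, whereas HoxB, HoxC and HoxD run from Hoxb13, Hoxc13 and Hoxd13 at the low-coordinate end to Hoxb1, Hoxc4 and Hoxd1. The same direction was assumed on mm9, so that gene names given for an end of an interval rest on this order. Genes numbered 13 pattern the tail end of the body and genes with low numbers the hindbrain and neck. The clusters also carry small RNAs that were duplicated with them. Mir10a stands beside Hoxb4 in HoxB and Mir10b beside Hoxd4 in HoxD, while Mir196b lies next to Hoxa10 in HoxA and copies of miR-196a lie next to Hoxb9 and Hoxc9. Their mature sequences are shown because they mark the intervals as related copies. Capitals mark the seed, bases 2 to 8 from the 5′ end, which is the same in miR-10a and miR-10b and the same in miR-196a and miR-196b.
mmu-miR-10a-5p: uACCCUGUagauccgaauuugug
mmu-miR-10b-5p: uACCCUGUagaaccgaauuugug
mmu-miR-196a-5p: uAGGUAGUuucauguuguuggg
mmu-miR-196b-5p: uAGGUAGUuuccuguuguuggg

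Hox promoters were rich in CpG dinucleotides. RefSeq promoter sequence was given for 22 of the 39 genes in 24 entries, 10 of HoxA, 3 of HoxB, 1 of HoxC and 10 of HoxD. The 250 bases before the start site held a median of 12.5 CpG (range 2 to 35) and a median GC content of 58.6%, against medians of 6 CpG and 52.4% over all 32851 entries. The entries with the most CpG were those of Hoxa13, with 35 CpG and 80% GC, and Hoxd13, with 31 CpG and 74.4% GC. Both are shown 5′ to 3′ with CpG in capitals, as the upper extremes of these entries and not as typical of Hox promoters or of the intervals.
Hoxa13, GRCm38.p6 chr6:52260881-52261130, minus strand: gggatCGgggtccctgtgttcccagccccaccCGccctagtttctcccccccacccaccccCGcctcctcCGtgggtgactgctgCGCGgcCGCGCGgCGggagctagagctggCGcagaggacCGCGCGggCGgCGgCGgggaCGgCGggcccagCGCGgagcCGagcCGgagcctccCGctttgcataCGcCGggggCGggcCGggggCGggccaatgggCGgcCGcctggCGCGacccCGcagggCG
Hoxd13, GRCm38.p6 chr2:74667975-74668224, plus strand: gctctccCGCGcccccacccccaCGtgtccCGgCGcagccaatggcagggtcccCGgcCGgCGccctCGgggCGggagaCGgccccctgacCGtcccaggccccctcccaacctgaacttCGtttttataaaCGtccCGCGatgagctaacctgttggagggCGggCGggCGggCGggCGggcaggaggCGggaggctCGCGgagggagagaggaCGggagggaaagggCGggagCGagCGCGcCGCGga
The E-box CACCTG, which ZEB1 and ZEB2 recognise, was searched on both strands and was found in 0 of the 24 Hox entries and in 17.2% of all entries. Without these letters in so short a window, nothing follows about either factor, and the entries cover neither all genes nor the space between them.

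The ChIP library held 34890624 aligned reads of 33 to 38 bp, most of them 36 bp, and the input 20896067. After 1 read per chromosome, 5′ end and strand was kept, 8474671 ChIP and 12471942 input reads remained on the 21 nuclear chromosomes. Of these, 4163 ChIP and 3998 input reads fell in the Hox clusters. In the clusters each retained ChIP position stood for 1.73 to 1.95 deposited reads and each input position for 1.10 to 1.16, below the 4.12 and 1.67 of the whole libraries. In the 200 kb on each side of the clusters the values were 2.44 and 1.17, also below those of the whole libraries. Intervals given below cover counting error only, because amplified reads without molecular identifiers are not independent molecules.

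All 4 clusters held more ChIP reads per kb than a typical stretch of the genome, and input was raised with them. HoxA held 1249 ChIP reads, or 10.4 per kb (95% Poisson interval 9.84 to 11.0), and 8.33 input reads per kb (7.82 to 8.87). HoxD followed with 1161 ChIP reads, 8.93 per kb (8.42 to 9.46), against 6.77 input reads per kb (6.33 to 7.23). HoxC held 794 ChIP reads, 5.67 per kb (5.28 to 6.08), and HoxB 959, 5.05 per kb (4.73 to 5.38), with 6.18 and 6.59 input reads per kb. The order of ChIP density was therefore HoxA, HoxD, HoxC and HoxB, and only the intervals of HoxC and HoxB overlapped. Set against all windows of the same length tiled over the genome that held input reads, HoxA had more ChIP reads than 93.4% of 21398 windows, HoxD than 91.2% of 19747, HoxC than 81.9% of 18345 and HoxB than 79.8% of 13525. For input reads the shares were 96.5%, 89.3%, 83.5% and 89.3%.

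The ChIP to input ratio was taken relative to the library totals, so that 1 is the mean of the genome. It was 1.94 in HoxD (95% interval 1.78 to 2.12), 1.84 in HoxA (1.69 to 2.0), 1.35 in HoxC (1.23 to 1.49) and 1.13 in HoxB (1.04 to 1.23). These values lay above the medians of windows of the same length, which were 0.514 to 0.554. Each also lay below the level that the highest 10% of windows reached, 1.99 to 2.11. The clusters were thus in the upper part of the genome by ratio without standing at its top.

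**Figure D1:**
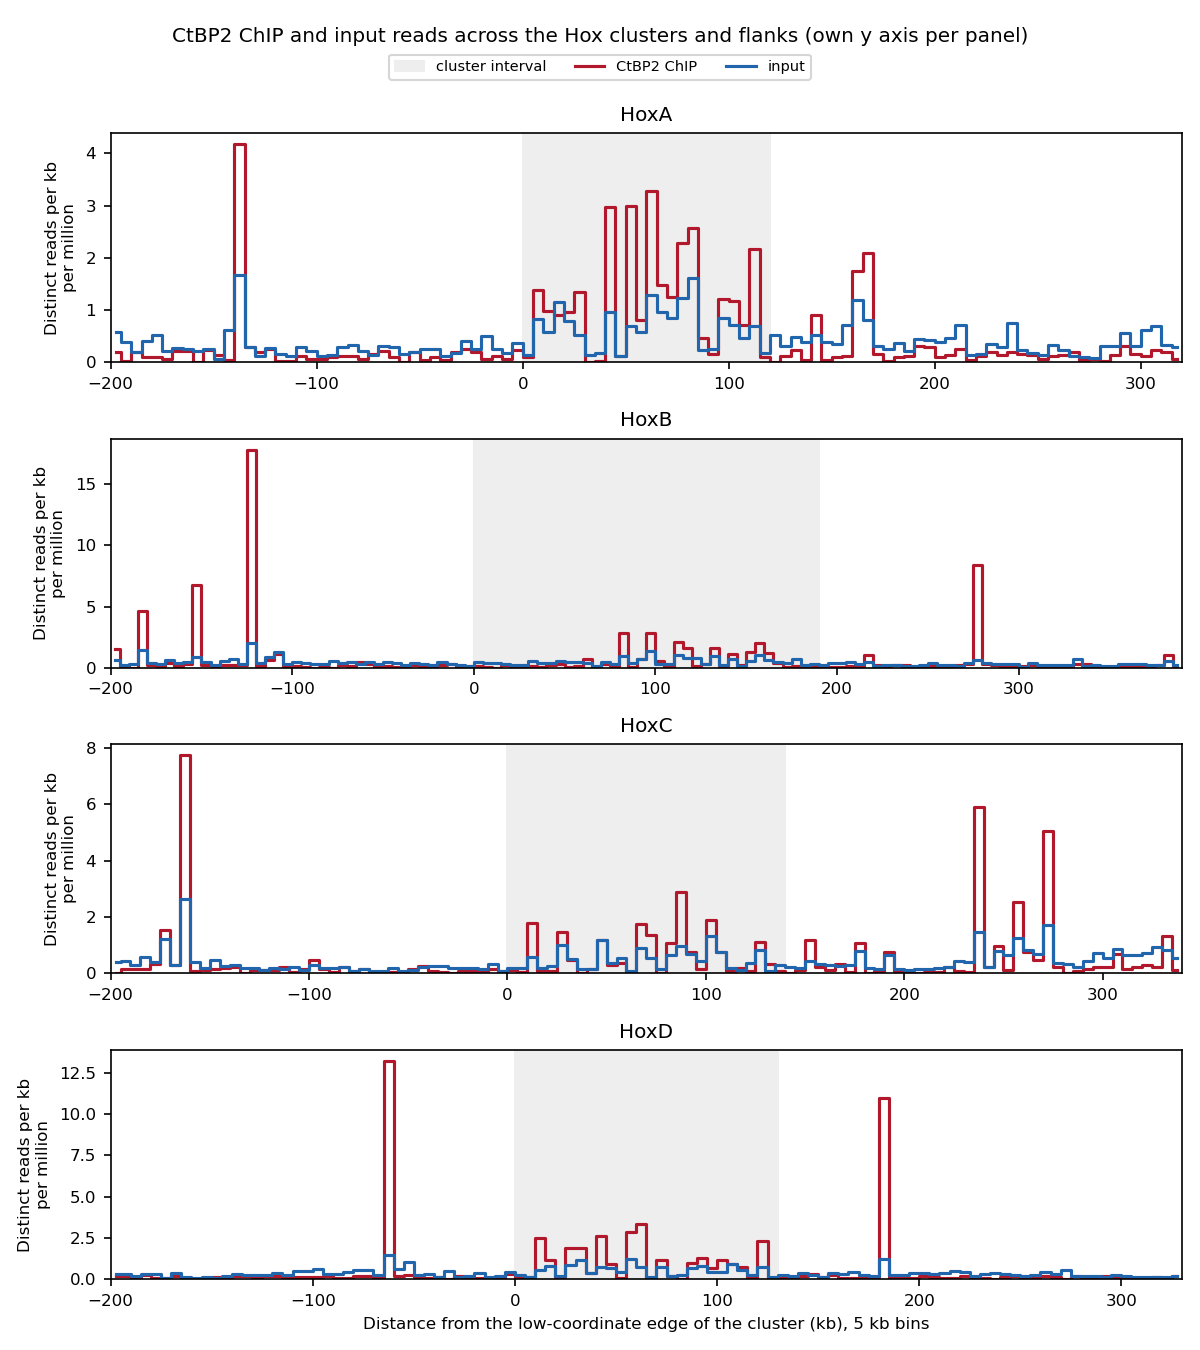
Distinct CtBP2 ChIP (red) and input (blue) reads per kb in 5 kb bins, scaled by library totals, across each Hox cluster (grey) and 200 kb on each side, by distance from the low-coordinate edge in kb, with an own y axis per panel. Both libraries rise in most of the grey intervals, while single tall ChIP peaks stand in the flanks, such as those 63 kb before and 53.5 kb after HoxD.

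The clusters held a large share of bins with a moderate ChIP count. Of the 1160 Hox bins, 898 held at least 1 read in either library. Of these 898, 120 bins (13.4%) held at least 10 ChIP reads, against 1.33% of 4026144 such bins in the genome, where the mean was 2.10 ChIP reads per bin. By cluster the numbers were 37 of 184 bins in HoxA (20.1%), 34 of 191 in HoxD (17.8%), 22 of 212 in HoxC (10.4%) and 27 of 311 in HoxB (8.68%). Only 18 of 21398 genome windows had as many such bins as HoxA, 27 of 19747 as many as HoxD, 134 of 13525 as many as HoxB and 158 of 18345 as many as HoxC. The limit of 10 reads was chosen after the values were seen.

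At higher read numbers the difference in these shares shrank, and from 100 reads on the Hox share was the lower. That turn rested on 1 bin at 100 reads and 0 at 200, of 898 Hox bins, and was not tested. At least 5 ChIP reads were found in 152 Hox bins (16.9%), against 2.15% in the genome. At least 20 were found in 78 Hox bins (8.69%), against 0.999% in the genome. At least 50 were found in 9 Hox bins (1.00%), against 0.621%. At least 100 were found in 1 Hox bin (0.111%), against 0.4%, and at least 200 in 0 Hox bins, against 0.242%. The deepest bin held 108 ChIP reads in HoxC, 93 in HoxA, 67 in HoxD and 47 in HoxB. Those maxima exceeded the maxima of 69.6%, 71.4%, 64.3% and 47.5% of windows of the same length, so they were ordinary for stretches of this size. Input behaved alike at the moderate level: 138 Hox bins (15.4%) held at least 10 input reads, against 4.4% in the genome, and the deepest Hox input bin held 38.

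**Figure D2:**
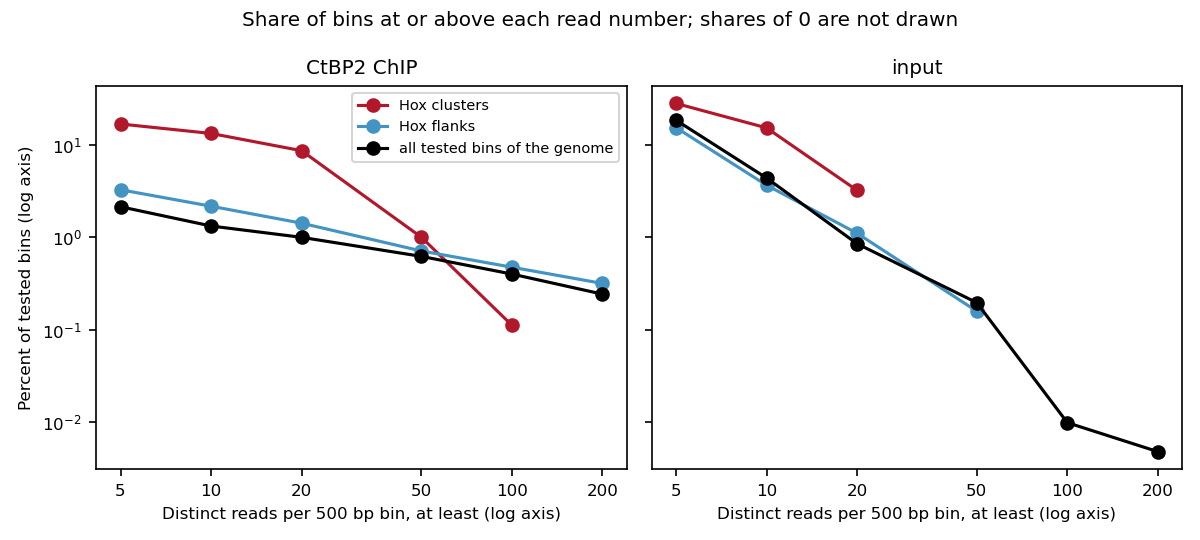
Percent of 500 bp bins with at least 1 read that held at least 5, 10, 20, 50, 100 or 200 distinct reads, for CtBP2 ChIP (left) and input (right), on log axes. The line of the Hox clusters (red) starts far above the genome (black) and the flanks (blue) in ChIP, at 13.4% against 1.33% and 2.2% for 10 reads, and crosses below both by 100 reads. At 100 reads it rests on 1 Hox bin.

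Signal came in short, separate patches. Touching bins with at least 10 ChIP reads formed 75 patches in the clusters, 46 of them a single bin, and the longest spanned 2000 bp. That was 129 patches per Mb, against 11.2 in the genome. HoxA had the most with 167 per Mb, followed by HoxD with 146, HoxC with 114 and HoxB with 105. The 10% of bins with the most ChIP reads held 73.3% of ChIP reads in HoxA and 79.2% to 80.9% in the other clusters, so the reads did not lie evenly over any cluster. In the 8 flanks together that share was 83.6%, higher than in any of the clusters.

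CtBP2 bins were called where the ChIP count was at least 3 times the expected one, itself the highest of the mean ChIP count and of the scaled input in the bin or over 1, 5 and 10 kb around it, with an adjusted p of at most 0.01 (Poisson test per bin, Benjamini-Hochberg over all tested bins). In the genome 0.716% of tested bins were called, and in the Hox clusters 42 of 898 (4.68%). HoxD had 17 called bins (8.90% of those tested), HoxA 9 (4.89%), HoxB 11 (3.54%) and HoxC 5 (2.36%). HoxD exceeded 99.9% of genome windows of its length in called bins, HoxA 98.6%, HoxB 97.9% and HoxC 90.5%. Called Hox bins were weak ones: their median fold over the expected count was 3.84 (range 3.02 to 7.80) and their median ChIP count 39.5, against a median fold of 5.53 and a median count of 116 over all 28836 called bins. Of the 42, 10 reached 5-fold (23.8%), against 57.5% of all called bins. Called bins held 41.7% of Hox ChIP reads (95% Wilson interval 40.2 to 43.2) and 14.4% of Hox input reads (13.4 to 15.6). In the whole genome they held 57.3% and 7.62%.

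The number called depended on how the libraries were scaled. With scaling on bins of low ChIP count, which takes 0.218 ChIP reads per input read as background in place of 0.679, 110 Hox bins were called and all 42 were among them, while the share of genome bins called rose to 1.2%. By cluster this gave 34 in HoxA, 33 in HoxD, 23 in HoxB and 20 in HoxC, so the lead of HoxD over HoxA in called bins was lost. With all deposited reads 19 Hox bins were called, 18 of them among the 42, against 0.45% of genome bins. These were 9 in HoxD, 6 in HoxA, 2 in HoxB and 2 in HoxC.

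In HoxD the called bins joined into 10 regions, the most per Mb of the 4 clusters, spread over the whole interval. The region with the most reads, chr2:74542501-74544000, held 122 ChIP and 33 input reads over 1500 bp. Its deepest bin held 53 ChIP reads against 6.79 expected, a fold of 7.80 (95% Poisson interval 5.84 to 10.2), the highest of any Hox bin called. A second region of 1500 bp, chr2:74520001-74521500, held 109 ChIP and 34 input reads in bins of 36, 42 and 31 ChIP reads. Toward the Hoxd13 end, chr2:74493501-74494500 held 103 ChIP and 26 input reads, with a fold of 5.78 (4.36 to 7.53) in its deepest bin. Next came chr2:74536001-74537000 with 87 ChIP and 23 input reads and, toward the Hoxd1 end, chr2:74601001-74602000 with 80 and 28. The sixth, chr2:74511001-74511500, held 67 ChIP and 24 input reads in a single bin, a fold of 4.11 (3.18 to 5.22). The other 4 regions were single bins of 19 to 45 ChIP reads. HoxD had the largest share of called regions wider than 1 bin: 5 of its 10, against 1 of 8 in HoxA, 2 of 9 in HoxB and 1 of 4 in HoxC. Patches of at least 10 ChIP reads, which take no account of input, did not set it apart from HoxA. A single bin made up 10 of 19 such patches in HoxD and 10 of 20 in HoxA, and the longest spanned 2000 bp in both.

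In HoxA, 7 of the 8 regions lay between 25.5 and 68 kb from the low-coordinate edge. The region with the most reads was chr6:52141001-52142000, with 104 ChIP and 23 input reads in bins of 51 and 53 ChIP reads. The next, chr6:52161501-52162000, had the deepest HoxA bin, 93 ChIP reads, but also the deepest Hox input bin, 38 reads, and a fold of 3.6 (2.91 to 4.41). A smaller bin, chr6:52154501-52155000, had 50 ChIP and 10 input reads and the highest fold of the cluster, 7.36 (5.46 to 9.70). Toward the Hoxa13 end, chr6:52210501-52211000 held 42 ChIP and 17 input reads. The remaining named regions, chr6:52125501-52126000 and chr6:52153501-52154000, held 40 and 36 ChIP reads and 10 and 16 input reads. Depth and fold thus ordered the HoxA regions differently.

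In HoxB the 9 regions were shallow, with no bin above 47 ChIP reads, and their deepest bins lay within a narrow range of fold, 3.08 to 3.95. The region with the most reads, chr11:96164501-96165500, held 75 ChIP and 32 input reads. It was followed by chr11:96206501-96207500 with 57 ChIP and 21 input reads, and by chr11:96133001-96133500 and chr11:96180001-96180500 with 44 ChIP reads each against 17 and 21 input reads. The last of the named regions, chr11:96160501-96161000 and chr11:96214501-96215000, held 40 and 31 ChIP reads and 19 and 12 input reads. No HoxB bin reached 5-fold.

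HoxC held the single deepest Hox bin and few others. That bin, chr15:102829501-102830000, held 108 ChIP reads (88.6 to 130) against 25 input reads and 17.0 expected, a fold of 6.36 (5.22 to 7.68) and an adjusted p of 7.91e-47 (Poisson test, Benjamini-Hochberg). HoxC regions together held 31.4% of the ChIP reads of the cluster (95% Wilson interval 28.2 to 34.7). Near the Hoxc13 end, chr15:102751501-102752500 held 61 ChIP and 19 input reads. The remaining regions, chr15:102806501-102807000 and chr15:102812001-102812500, held 43 and 37 ChIP reads and 18 and 12 input reads.

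Parts of the clusters carried hardly any ChIP signal. In HoxB the first 62.5 kb from the low-coordinate edge, chr11:96050001-96112500, which begins at the Hoxb13 end, had no called bin. It held 69 ChIP and 324 input reads, a ratio of 0.313 (0.242 to 0.406), below the 0.432 of all genome bins away from called bins. The last 20 kb of HoxB toward Hoxb1 were alike, with 9 and 6 ChIP reads per 10 kb against 70 and 32 input reads, ratios of 0.189 (0.0945 to 0.379) and 0.276 (0.115 to 0.660). Between 96.13 and 96.22 Mb, by contrast, 7 of the 9 segments of 10 kb had ratios of 1.43 to 2.10, and the other 2 had 0.870 and 0.463. The HoxB signal thus lay between quiet stretches at both ends of the interval.

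The longest stretch without a called bin was not quiet in every cluster. In HoxA it was chr6:52168001-52210500, 42.5 kb long, which still held 452 ChIP and 412 input reads, a ratio of 1.61 (1.41 to 1.85). A short gap did occur at 52.13 to 52.14 Mb of HoxA, where 10 kb held 1 ChIP read and 20 input reads, while the adjoining 10 kb segments held 98 and 131 ChIP reads. In HoxC the longest stretch was chr15:102752501-102806500, 54 kb long, with a ratio of 0.968 (0.808 to 1.16). In HoxD it was only 21.5 kb, chr2:74544001-74565500, with a ratio of 1.16 (0.851 to 1.58). HoxD had 12 of 13 segments of 10 kb with a ratio above 0.9, from 0.991 to 3.90, and the exception was the first, at 0.640.

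Because input rose with ChIP, Hox bins were compared with bins of the rest of the genome that held like numbers of input reads. Bins with 10 to 14 input reads had a median of 12 ChIP reads in the clusters (n = 65, interquartile range 3 to 29) and of 1 in the rest of the genome (0 to 2). In this range 19 of the 65 Hox bins were called (29.2%), against 2.6% in the rest of the genome. By cluster the medians in this range were 29 ChIP reads in HoxD, 16 in HoxA, 11 in HoxC and 10.5 in HoxB, each above the genome. With 15 to 19 input reads the Hox median was 21.5 (n = 44) against 4, and 10 of 44 bins were called (22.7%), against 14%. With 5 to 9 input reads the medians were both 1, but 8 of 116 Hox bins were called (6.90%), against 0.372%. With 0 to 4 input reads 0 of 644 Hox bins were called, against 0.0257%.

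At 20 to 24 input reads the Hox median was still the higher but the called share was the lower, and at 25 to 39 the median was lower too. With 20 to 24 input reads the Hox median was 33.5 ChIP reads (n = 16, interquartile range 26 to 38.5) against 23 (6 to 56), and 3 of 16 bins were called (18.8%), against 31.3%. With 25 to 39 input reads the Hox median was 34 (n = 13, 30 to 44) against 64 (26 to 132), and 2 of 13 were called (15.4%), against 50.7%. Of these 13 bins 1 held at least 100 ChIP reads, where 34.2% of such genome bins did. By cluster, 8 of the 13 lay in HoxA, 3 in HoxC and 2 in HoxB. The 200 kb flanks had medians near those of the clusters, 31 (n = 5) at 20 to 24 and 36.5 (n = 14) at 25 to 39. Their called shares were 20% and 28.6%, so the lower values at high input were not particular to the clusters. At 25 to 39, however, 4 of the 14 flank bins held at least 100 ChIP reads (28.6%). Between these groups by input the Hox median moved from 33.5 to 34 and that of the genome from 23 to 64. These groups by input were chosen after the values were seen, and bins share 1 pair of libraries, so the medians are descriptions without a test. The part of base composition and of how well reads can be placed in these values was not tested, since no sequence of the build was used.

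**Figure D3:**
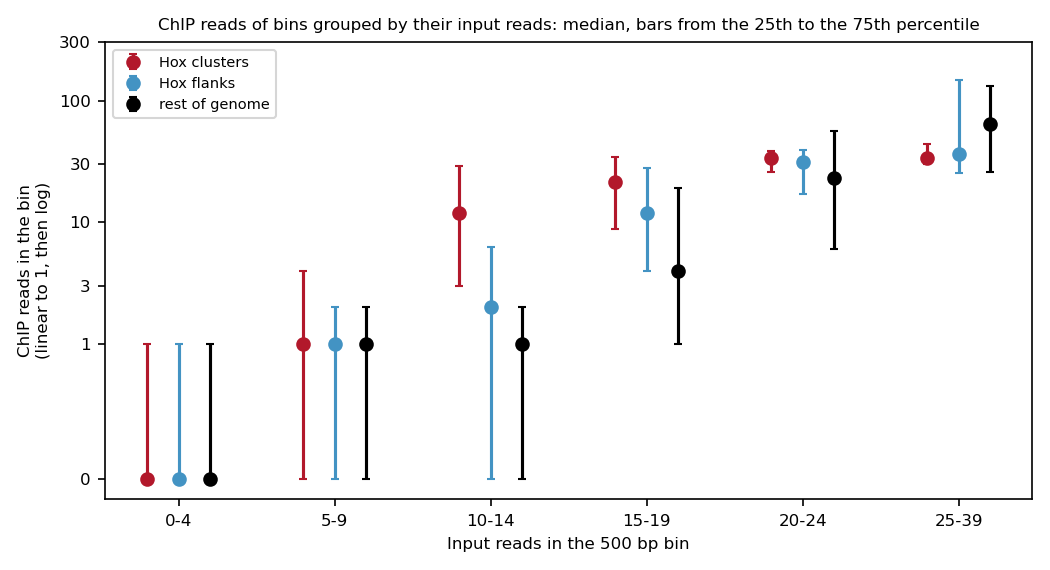
ChIP reads per 500 bp bin (linear to 1, then log) for bins grouped by their input reads, as medians with bars from the 25th to the 75th percentile. Hox bins (red) stand above the rest of the genome (black, flanks included) at 10 to 19 input reads, with medians of 12 and 21.5 against 1 and 4, and below it at 25 to 39, with 34 against 64. Bins of the Hox flanks (blue) had a median of 36.5 at 25 to 39.

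Across the bins of each cluster ChIP and input counts were positively correlated. Spearman's rho between the libraries over bins with at least 1 read was 0.561 in HoxA (184 bins), 0.395 in HoxD (191), 0.3 in HoxC (212) and 0.242 in HoxB (311). Over the 2531 such flanking bins it was 0.0198 and over the 4026144 such bins of the genome 0.0187. Pearson's r on log2 counts, with 1 added to each count, was not near 0 outside the clusters. It was 0.281 in the flanking bins and 0.218 in the genome, against 0.465 in HoxB to 0.757 in HoxA. These are descriptions over bins that share libraries and depth.

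The 200 kb on each side served as local background. HoxA stood out from its surroundings most: its ratio of 1.84 compared with 0.675 in the flanks, a ratio of ratios of 2.72 (95% interval 2.42 to 3.06, adjusted p = 2.55e-63, two-sided Fisher exact test on reads, adjusted over 4 clusters). HoxD was 1.49 times its flanks (1.33 to 1.67, adjusted p = 7.52e-12) and HoxC 1.19 times (1.06 to 1.34, adjusted p = 0.00339) by the same Fisher exact test. HoxB was lower than its flanks at 0.666 times (0.600 to 0.738, adjusted p = 1.88e-14, Fisher exact test). Reads fall in clumps, so these p-values understate the error.

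Only the HoxA difference passed the Fisher exact test under every alternative run. HoxD came to 1.06 times its flanks with all deposited reads (adjusted p = 0.263, Fisher exact test) and to 1.05 with flanks of 100 kb (adjusted p = 0.585). With those shorter flanks HoxC came to 1.16 (adjusted p = 0.0996) and HoxB to 0.987 (adjusted p = 0.866) by the Fisher exact test. With bins of high input left out, those with at least 10 times the mean input of the genome, HoxD rose to 2.98 times its flanks (2.63 to 3.39) and HoxC to 2.12 times (1.86 to 2.41), while HoxB came to 0.914 (adjusted p = 0.108, Fisher exact test). This setting took no bin of HoxD or HoxC, whose deepest input bins held 24 and 27 reads, below the limit of 31. It took flank bins, among them the deepest ChIP bins on both sides of HoxD and HoxC, so their rise came from the flanks.

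The flanks of HoxB, HoxC and HoxD held isolated sites with more ChIP reads than any bin inside the clusters. The low-coordinate flank of HoxB had a bin of 529 ChIP and 57 input reads at chr11:95926501-95927000, which alone held 32.4% of the ChIP reads of that flank, and the other side had 315 ChIP reads at chr11:96325501-96326000, a fold of 22.1. HoxD was bracketed by bins of 295 ChIP reads at chr2:74416501-74417000 and 291 at chr2:74663501-74664000, 63 and 53.5 kb from its edges. HoxC had 196 at chr15:102577001-102577500, with 88 input reads and a fold of 3.28, and 235 at chr15:102977001-102977500, with 60 input reads and a fold of 5.76. Both of these folds lay below the 6.36 of the deepest HoxC bin. The bins named beside HoxB and HoxD had folds of 9.04 to 22.1, above the 7.80 that was the highest of any called Hox bin. The deepest bins beside HoxA, with 97 and 64 ChIP reads, were of the same order as its own.

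With called bins and the bin on each side of them left out of clusters and flanks, the ratio was higher in each cluster than in its flanks. It was 1.36 in HoxA against 0.494, 2.75 times (2.39 to 3.16, adjusted p = 4.68e-45, Fisher exact test). HoxD had 0.881 against 0.396, 2.22 times (1.86 to 2.66, adjusted p = 6.97e-18), and HoxC 1.01 against 0.704, 1.44 times (1.26 to 1.65, adjusted p = 3.39e-07), by the Fisher exact test. With all deposited reads HoxD came to 3.62 times (3.19 to 4.12) and HoxA to 2.45 times (2.20 to 2.73), so the order of the pair turned. HoxB, below its flanks before, came to 0.716 against 0.582, 1.23 times (1.07 to 1.41, adjusted p = 0.00378, Fisher exact test). Over all genome bins treated the same way the ratio was 0.432. Called bins were picked by ChIP count over the expected one in these same reads, so leaving them out lowers ChIP by unequal amounts. The HoxB flanks went from 2309 to 685 ChIP reads and HoxB from 959 to 495, so the turn of HoxB came with this selection. The p-values cover only the reads left over and are no separate support for a difference.

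When bins with at least 10 ChIP reads were left out too, a setting chosen after the values were seen, HoxB stood at 0.929 times its flanks (0.780 to 1.11), HoxC at 1.22 times (1.00 to 1.49) and HoxD at 1.20 times (0.955 to 1.51). None of these 3 passed the Fisher exact test after adjustment, with adjusted p of 0.425, 0.1 and 0.16. HoxA kept its call at 1.40 times its flanks (1.11 to 1.75, adjusted p = 0.018, Fisher exact test), down from 2.75. This setting removes bins by their ChIP count, and it took 23 of 163 remaining bins in HoxA (14.1%) against 4 of 613 in its flanks (0.653%), so the ratios had to move toward the flanks. Calling with background-bin scaling gave 1.40 for HoxA (1.09 to 1.80, adjusted p = 0.0367, Fisher exact test), and HoxB at 0.923, HoxC at 1.15 and HoxD at 1.23 did not pass.

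**Figure D4:**
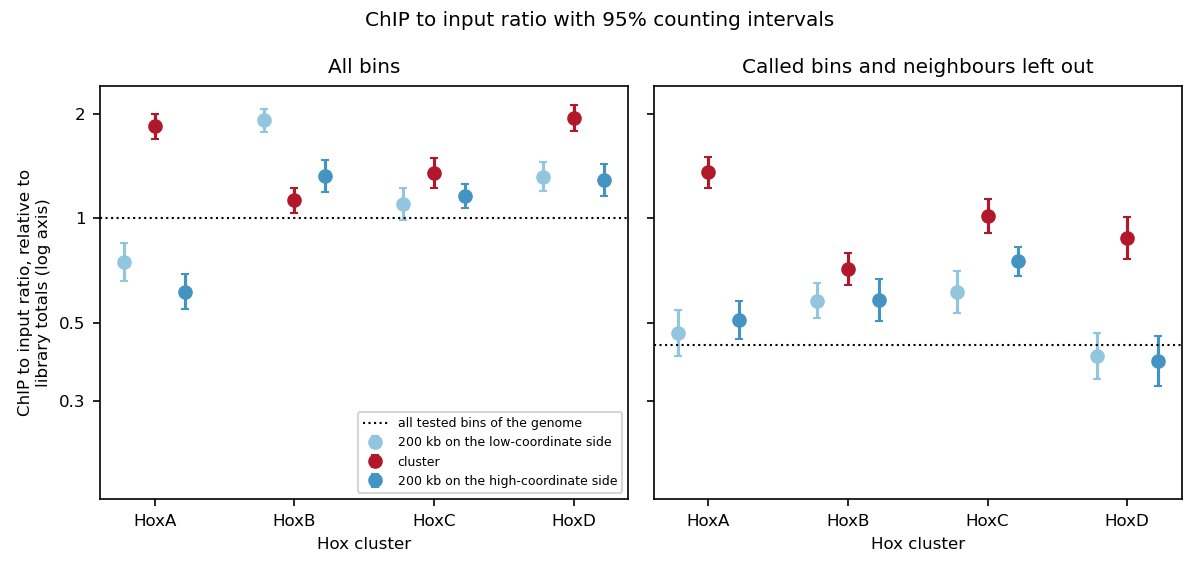
ChIP to input ratio relative to library totals (log axis) of each Hox cluster (red) and of the 200 kb on either side (blue), with 95% counting intervals, for all bins (left) and with called bins and their neighbours left out (right). The dotted line is the genome, at 1 on the left and 0.432 on the right, and on the right each cluster stands above both of its flanks. The called bins left out on the right were picked by ChIP count in the same reads.

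Among the clusters, HoxA and HoxD had the higher ratios and the test did not separate them. HoxA over HoxD came to 0.947 (adjusted p = 0.388, Fisher exact test adjusted over 6 pairs), with a 95% interval that holds any ratio from 0.839 to 1.07. HoxA was 1.63 times HoxB (1.45 to 1.84, adjusted p = 1.34e-15) and 1.36 times HoxC (1.20 to 1.55, adjusted p = 3.34e-06) by the Fisher exact test. HoxB was 0.580 times HoxD (0.514 to 0.655, adjusted p = 6.88e-18) and HoxC 0.696 times HoxD (0.611 to 0.793, adjusted p = 9.28e-08) by the Fisher exact test. HoxB was 0.834 times HoxC (0.734 to 0.948, adjusted p = 0.00667, Fisher exact test).

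HoxA and HoxD differed in the share of reads in called bins as defined above. Called bins held 60.3% of the ChIP reads of HoxD (95% Wilson interval 57.4 to 63.1) and 33.4% of those of HoxA (30.8 to 36.0). With called bins and their neighbours left out, HoxA was 1.54 times HoxD (1.30 to 1.83, adjusted p = 2.62e-06, Fisher exact test) and HoxC over HoxD turned from 0.696 to 1.15 (0.963 to 1.38, adjusted p = 0.133, Fisher exact test). Called bins were picked by ChIP count and held the larger share in HoxD, so leaving them out lowered HoxD more. The turns follow from that selection, and their p-values are no separate support for a difference between clusters. Which bins were left out depended on the scaling, since background-bin scaling called 34 bins in HoxA and 33 in HoxD.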

How the data were processed

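Per the labels, MIN6 chromatin was fixed, sonicated and precipitated with an anti-CtBP2 antibody, and input was sequenced beside it. The submitters' processing notes name BWA, SAMtools 0.1.19, bedtools 2.17.0 and build mm9, and mapping filters are not given in the sources used here. The deposited files hold 1 line per aligned read with start and end, given in bp as positions. Their name column, taken as a raw read count, is 1 on every deposited line, and the deposited score is 0 throughout, so no mapping quality is given.

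From these, 5′ ends were made unique per strand and moved by 110 bp, 0.5 of the ChIP fragment length of 220 bp from strand cross-correlation (Python 3.11.15, NumPy 2.4.6, SciPy 1.17.1, pandas 2.3.3, matplotlib 3.10.9). Input was scaled by library totals (0.679). The expected count includes the input of the bin itself. The members and lists were chosen with earlier results of these data known. Up to 6 regions per cluster, those with most ChIP reads, are named. Ratio intervals use the log scale. The call was also tested on simulated counts over the smoothed input of the genome. Of 50 bins planted per fold size, it found 1 (3-fold), 2 (5-fold), 30 (10-fold) and 50 (20-fold), and it called 0 of 4748996 other bins. The simulation ran over smoothed input and not over the clumped reads of the data, so the 0 does not measure false calls there. For the same reason the numbers found need not hold for the Hox bins.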

Additional observations from a re-analysis of the deposited data

How the results depend on the processing

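No paired analysis was possible because ChIP and input came as a single library each. The 42 called Hox bins became 19 with all deposited reads (0.450% of genome bins called), 110 with background-bin scaling (1.20%) and 10 at a fold of at least 5 (0.412%), against 0.716% in the genome, and the other alternatives for this count stayed within 1.5 times. Against flanks, HoxD fell to 1.06 with all deposited reads. With flanks of 100 kb, HoxB came to 0.987, HoxC to 1.16 and HoxD to 1.05, none past the Fisher exact test. With high-input bins left out HoxB came to 0.914, and HoxC and HoxD, where this took flank bins only, rose to 2.12 and 2.98. With bins of at least 10 ChIP reads left out, HoxB came to 0.967, HoxC to 1.22 and HoxD to 1.18.

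Outside called bins, calling with background-bin scaling gave 0.923 for HoxB, which turned its direction, 1.15 for HoxC and 1.23 for HoxD, and leaving out bins of at least 10 ChIP reads gave 0.929, 1.22 and 1.20. HoxA kept its direction and its side of the threshold in each alternative run against flanks, but leaving out bins of at least 10 ChIP reads took it from 2.72 to 1.45, and outside called bins from 2.75 to 1.40, as did background-bin scaling (1.40). Between clusters, leaving out called bins turned HoxA over HoxD to 1.54 and HoxC over HoxD to 1.15. Leaving out bins of at least 10 ChIP reads gave 1.30 for HoxA over HoxB, 1.09 for HoxA over HoxC, 1.27 for HoxA over HoxD, 0.836 for HoxB over HoxC, 0.977 for HoxB over HoxD and 1.17 for HoxC over HoxD, and no pair passed. These settings remove the bins that carry most ChIP reads. Settings on bins of at least 10 ChIP reads were chosen after the values were seen. Depth limits single bins: with a genome mean of 2.10 ChIP reads per bin, a weak site cannot be told from none.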
